A study of Mus musculus with 30 samples.

Results

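The genes of the integrated stress response and of its branch in the endoplasmic reticulum were followed on 30 arrays of mouse brain RNA. The members are 9 genes chosen by name: Atf4, Atf5, Ddit3, Trib3, Asns, Chac1, Sesn2, Xbp1 and Herpud1. They were represented by 17 of the 46174 probes and are 9 of 21907 genes with a named probe. A probe counted as detected on an array when fewer than 5% of the receptor probes used as negatives were as bright, and a gene was tested when its probe was detected on at least 5 arrays. By that rule 8 of the 9 members were tested, among 13226 genes in all, and Sesn2 was not.

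C57BL/6J mice received saline or dexamethasone, a synthetic glucocorticoid that activates the glucocorticoid receptor, at 4 mg/kg, and RNA was taken 4 h later. The RNA came from the nucleus accumbens, a part of the ventral striatum, either as whole tissue or as astrocytes or neurons sorted with magnetic beads, each array holding RNA of 1 mouse. This gave 6 groups of 5 arrays: astrocyte saline, astrocyte dexamethasone, neuron saline, neuron dexamethasone, tissue saline and tissue dexamethasone. The age of the mice and the antibodies used for sorting are not stated in any source used, and dexamethasone reached the whole animal rather than isolated cells. Arrays with the same replicate number shared 1 of 5 chips, and each group always lay at the same chip position; effects of chip position and of group cannot be told apart. Tissue was not sorted, so that effects of sorting and of cell type cannot be told apart where cells are compared with tissue.

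Between 36.2% and 50.1% of the probes were detected per array. The tissue dexamethasone array of replicate 5 stood apart, with the highest share detected and a mean correlation of 0.909 with its group, against 0.948 to 0.980 on the other arrays. Tests that involve tissue under dexamethasone are therefore also given without it. On the saline arrays the mean level of 10 astrocyte markers was 13.6 in astrocytes, 8.69 in neurons and 11.1 in tissue (log2), and that of 7 tested neuron markers was 9.74 in astrocytes and 12.4 in tissue, and from 11.9 to 12.2 on the neuron arrays. Of the 7 neuron markers, 5 were detected on all 5 astrocyte saline arrays, and only Tubb3 was detected on 0. Of the 10 astrocyte markers, 5 were detected on all 5 neuron saline arrays, and only Fgfr3 was detected on 0. Against tissue, all 10 astrocyte markers were called up in the astrocyte preparation and down in the neuron preparation. Of the 7 neuron markers 5 were lower in astrocytes than in neurons, but in neurons 0 were higher and 4 lower than in tissue (median difference -0.40), while of 7 tested markers of medium spiny neurons, the main neurons of the striatum, 4 were higher and 0 lower there (median 0.99). Neither sorted preparation was free of other cells' markers. Markers of blood averaged 13.5 on the neuron saline arrays (13.2 to 13.9), against 10.1 in astrocytes and 10.7 in tissue, and all 5 were detected on every neuron saline array. The 3 tested markers of dividing cells averaged 10.02 there, against 5.94 and 6.51. Higher in astrocytes than in neurons were 8 of 8 microglia markers (median difference 2.97, list means 9.19 and 6.28), 4 of 5 markers of mural cells of vessels (3.64, 9.78 and 6.59) and 5 of 7 oligodendrocyte markers (1.41, 13.7 and 12.7). Against tissue, however, 0 of the 8 microglia markers were higher and 4 lower in astrocytes (median -0.52). Of the 7 oligodendrocyte markers 0 were higher and 4 lower there (-0.68), while 4 of the 5 mural markers were higher and 0 lower (1.49). Endothelial markers were higher than in tissue in both sorted preparations, 6 of 7 in astrocytes and 5 of 7 in neurons. These lists moved with the differences between preparations described below, and their part in them was not tested.

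In the integrated stress response, kinases that sense amino acid shortage, viral RNA, heme loss or unfolded protein phosphorylate the initiation factor eIF2. Most translation then falls, while the mRNA of Atf4 is translated more, and the ATF4 protein switches on genes of amino acid supply, redox balance and, on long activation, cell death. Because much of this control acts on translation, the mRNA level of Atf4 is not a measure of ATF4 protein. In brain the pathway is studied in memory, glial metabolism and neurodegeneration.

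ATF4 binds the C/EBP-ATF response element together with C/EBP partners. The RefSeq promoter windows of the members (GRCm38.p6, 250 bases before to 50 after the transcription start) were searched on both strands for this element as TGATGNAAN, for the endoplasmic reticulum stress element and for a palindromic glucocorticoid response element. All 9 members had a window. The windows of 4 held TGATGNAAN, namely Asns, Chac1, Trib3 and Herpud1, against 4.496% of 27025 genes and 3.954% of 32851 windows. In the letters searched, none of the 9 held either of the other elements, which were present in 0.137% and 0.537% of genes. No match thus overlapped another motif searched. The windows with a match are shown because they include Asns and Chac1, the members that differed most between preparations. Each runs 5′ to 3′ on the strand of its gene, and the capitals mark the match.
Asns (chr6:7693160-7693459, minus strand; match -23 to -15 from the start): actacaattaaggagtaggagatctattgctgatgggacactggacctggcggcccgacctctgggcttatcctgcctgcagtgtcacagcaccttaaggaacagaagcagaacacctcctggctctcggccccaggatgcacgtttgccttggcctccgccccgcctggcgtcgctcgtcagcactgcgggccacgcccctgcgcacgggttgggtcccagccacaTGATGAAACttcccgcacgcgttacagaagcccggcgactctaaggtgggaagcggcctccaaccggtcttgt
Chac1 (chr2:119350992-119351291, plus strand; match -194 to -186, read on the opposite strand): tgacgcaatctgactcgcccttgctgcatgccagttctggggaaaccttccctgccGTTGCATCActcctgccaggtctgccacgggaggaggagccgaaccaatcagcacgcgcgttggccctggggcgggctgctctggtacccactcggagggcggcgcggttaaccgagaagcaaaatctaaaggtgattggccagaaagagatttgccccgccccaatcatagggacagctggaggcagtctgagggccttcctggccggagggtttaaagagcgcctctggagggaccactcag
Trib3 (chr2:152344011-152344310, minus strand; match 14 to 22 after the start, read on the opposite strand): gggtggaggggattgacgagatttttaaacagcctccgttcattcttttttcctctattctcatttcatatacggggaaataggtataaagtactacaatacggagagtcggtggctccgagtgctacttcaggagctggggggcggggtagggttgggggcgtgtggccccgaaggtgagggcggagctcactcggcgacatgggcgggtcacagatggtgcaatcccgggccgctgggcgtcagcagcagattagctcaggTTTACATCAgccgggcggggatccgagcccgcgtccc
Herpud1 (chr8:94386179-94386478, plus strand; match -113 to -105, read on the opposite strand): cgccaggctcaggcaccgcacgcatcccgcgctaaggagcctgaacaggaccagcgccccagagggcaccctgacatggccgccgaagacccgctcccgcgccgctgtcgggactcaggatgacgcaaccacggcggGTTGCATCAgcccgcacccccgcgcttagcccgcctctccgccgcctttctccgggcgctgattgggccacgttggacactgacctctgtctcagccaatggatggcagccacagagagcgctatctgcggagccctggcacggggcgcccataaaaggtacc
A match is a description of the letters and was not tested for binding. Of these 4 genes, Asns and Chac1 were far lower in astrocytes than in the other preparations, whereas Herpud1 was not called different between any of them on the saline arrays.

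The first question was how the members' levels differed between preparations without the drug. On the saline arrays 7 of the 8 tested members differed between astrocytes and neurons, where 58.2% of all tested genes did. Atf4, Atf5 and Ddit3 were higher in astrocytes, and Trib3, Asns, Chac1 and Xbp1 were lower. Asns, Chac1 and Trib3, which ATF4 is known to induce, thus lay on the side opposite to Atf4, Atf5 and Ddit3 in this contrast. The members do not show a split of factors from targets. Xbp1, also a factor, lay on the side of Asns and Chac1, and 15 of 23 other ATF4 targets, counted below, were higher in astrocytes. The calls of Atf4 and Ddit3 did not hold under all alternatives, as given below. The median difference of the 8 was -0.33 (log2), against -0.08 over all tested genes. Between astrocytes and tissue 4 of 8 differed (51.8% of all genes), with Atf5 higher and Asns, Chac1 and Xbp1 lower in astrocytes. Between neurons and tissue 2 of 8 differed (26.9% of all genes), with Trib3 higher and Chac1 lower in neurons. In tissue, a lower level may come from fewer cells that hold the RNA or from less RNA per cell, and these cannot be told apart.

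**Figure D1:**
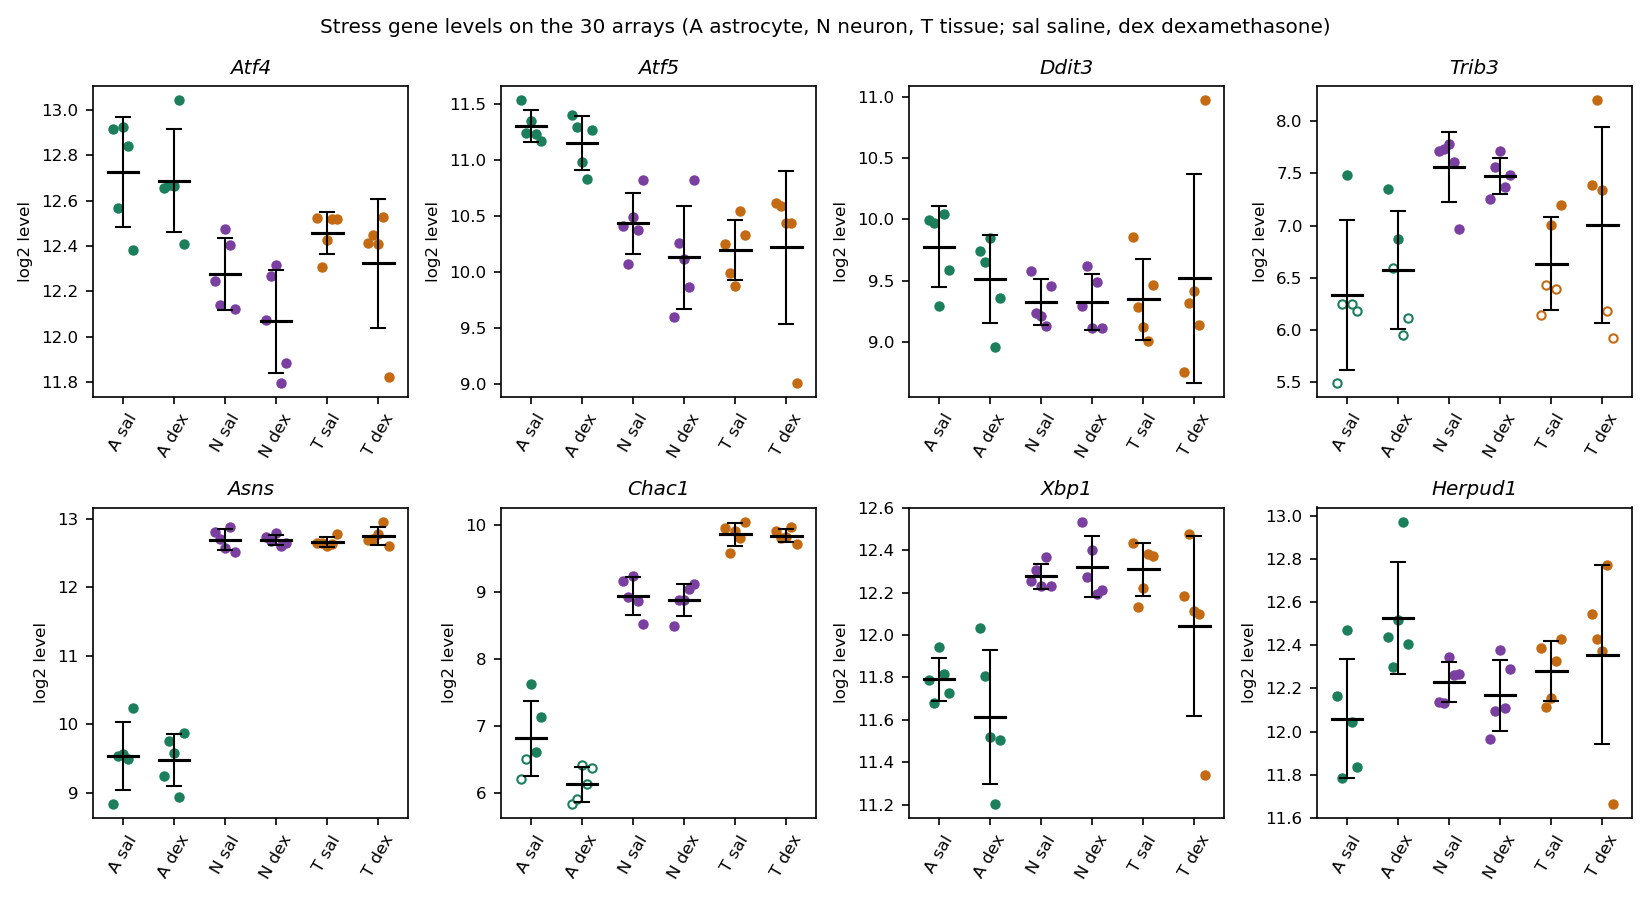
Level of each tested member on every array (vertical axis, log2 intensity after background correction and quantile normalization), by group of 5 arrays (horizontal axis). Filled points were detected and open points were not; bars show the mean and 1 SD. Asns lies between 8.83 and 10.23 on all 10 astrocyte arrays and at 12.52 or above on the other 20.

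Asns encodes asparagine synthetase, which makes asparagine from aspartate and glutamine and is a classic ATF4 target. The probe with the highest mean read 8.83, 9.53, 9.57, 9.49 and 10.23 on the 5 astrocyte saline arrays. On the neuron saline arrays it read 12.80, 12.70, 12.57, 12.88 and 12.52, and on the tissue saline arrays 12.65, 12.65, 12.59, 12.63 and 12.77. Astrocyte values overlapped neither of the others, while the neuron and tissue ranges lay on top of each other. The mean in astrocytes was 9.53 ± 0.49 (SD, n = 5), which was 8.94-fold below neurons (log2 difference -3.16 ± 0.19 SE, limma adjusted p = 4.62e-10) and 8.74-fold below tissue (-3.13 ± 0.19, adjusted p = 1.80e-09). It was lower in astrocytes on all 5 chips, by -3.97 to -2.29 against neurons. Neurons and tissue differed by 0.03 ± 0.19 (adjusted p = 0.919). The other Asns probes, detected on 21 and 24 of the 30 arrays, gave -2.23 ± 0.25 and -3.66 ± 0.31 for astrocytes against neurons. All 3 probes thus ran the same way, but the sizes on these other probes may rest partly on undetected values. On the dexamethasone arrays the difference of the probe with the highest mean was -3.21 ± 0.17 (adjusted p = 9.69e-11).

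Chac1 encodes an enzyme that degrades glutathione and is induced by ATF4. Its single probe was detected on 3 of the 5 astrocyte saline arrays, which read 6.21, 6.50, 7.62, 6.61 and 7.13, the first and the second of these below detection. The neuron saline arrays read 9.16, 8.93, 9.24, 8.86 and 8.52, and the tissue saline arrays 9.94, 9.58, 9.90, 9.79 and 10.04. The 3 preparations formed 3 separate ranges, with tissue highest and astrocytes lowest. Chac1 was lower in astrocytes than in neurons by a log2 difference of -2.13 ± 0.22 (adjusted p = 4.69e-07) and than in tissue by -3.04 ± 0.22 (adjusted p = 1.43e-08). Neurons were below tissue by -0.91 ± 0.22 (adjusted p = 0.00639), with the same sign on all 5 chips. On the dexamethasone arrays neurons were also below tissue, by -0.96 ± 0.16 (adjusted p = 0.000283), and by -0.99 ± 0.15 (adjusted p = 0.000234) without the tissue array that stood apart. There Chac1 was not detected on any astrocyte array, and neurons were at least 4.53-fold and tissue at least 8.8-fold higher, or at least 9-fold without that array. For such a bound, each undetected array was set to the lowest level that was detected on it, or to the probe's own level where that was higher, and the group means were compared.

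Trib3 encodes a pseudokinase that is induced by ATF4 and CHOP and in turn dampens ATF4 activity. It was the dimmest tested member, detected on 18 of 30 arrays, among them all 10 neuron arrays. The astrocyte saline arrays read 5.50, 6.25, 7.49, 6.24 and 6.18, and only the third of these was detected. The neuron saline arrays read 7.72, 7.73, 7.78, 7.61 and 6.97, and the tissue saline arrays 6.15, 6.43, 7.01, 6.39 and 7.19, with 2 of the tissue arrays detected. 1 astrocyte array thus lay inside the neuron range, and the tissue and neuron ranges overlapped at their ends. Trib3 was lower in astrocytes than in neurons by -1.23 ± 0.30 (adjusted p = 0.00231) and higher in neurons than in tissue by 0.93 ± 0.30 (adjusted p = 0.0322). Against tissue the astrocyte difference was -0.30 ± 0.30 (adjusted p = 0.430). The call between neurons and tissue was lost when any of 7 single arrays was left out, namely neuron saline replicates 1 to 4 or tissue saline replicates 1, 2 or 4, with adjusted p from 0.0558 to 0.0844. It was also absent on the dexamethasone arrays (0.47 ± 0.37, adjusted p = 0.389, and 0.20 ± 0.34, adjusted p = 0.713, without the tissue array that stood apart). A second detected probe, seen on 5 arrays, gave -0.31 ± 0.24 for astrocytes against neurons (adjusted p = 0.291 over all detected probes), and another was detected on 0 arrays.

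Atf4 encodes the central transcription factor of the response. Its levels were 12.92, 12.57, 12.92, 12.84 and 12.38 in astrocytes, 12.24, 12.14, 12.47, 12.40 and 12.12 in neurons and 12.52, 12.31, 12.42, 12.52 and 12.52 in tissue. The order of the means was astrocytes, tissue, neurons. All ranges overlapped, also those of astrocytes and neurons, but no neuron array reached the astrocyte mean. Astrocytes exceeded neurons by 0.45 ± 0.13 (adjusted p = 0.00696), a 1.37-fold difference with the same sign on all 5 chips. With median centring in place of quantile normalization this was 0.39 (adjusted p = 0.125) and no longer called. The difference from tissue, 0.27 ± 0.13, was not called (adjusted p = 0.0959), and neither was that between neurons and tissue (-0.18 ± 0.13, adjusted p = 0.337). The second Atf4 probe gave 0.48 ± 0.17 against neurons (adjusted p = 0.0272) and 0.44 ± 0.17 against tissue (adjusted p = 0.0442), so the call against tissue depends on the probe.

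Atf5 encodes a related factor whose mRNA is also translated more when eIF2 is phosphorylated. Astrocyte saline arrays read 11.54, 11.24, 11.35, 11.23 and 11.17, neuron arrays 10.41, 10.07, 10.49, 10.38 and 10.82, and tissue arrays 10.26, 9.99, 9.88, 10.54 and 10.33. Every astrocyte array was above every array of the others. The difference was 0.87 ± 0.16 from neurons (1.83-fold, adjusted p = 0.000141) and 1.11 ± 0.16 from tissue (2.15-fold, adjusted p = 1.56e-05), and on the dexamethasone arrays 1.02 ± 0.29 and 0.94 ± 0.29 (adjusted p = 0.00690 and 0.0140). Without the tissue array that stood apart, on which Atf5 was lowest, the difference from tissue under dexamethasone was 0.63 ± 0.21 (adjusted p = 0.0186). Neurons and tissue differed by 0.23 ± 0.16 (adjusted p = 0.299).

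Ddit3 encodes CHOP, the factor tied to cell death after prolonged stress. Its astrocyte saline values were 9.997, 9.97, 9.29, 10.04 and 9.59, against 9.58, 9.24, 9.21, 9.13 and 9.46 in neurons and 9.86, 9.28, 9.12, 9.01 and 9.47 in tissue, and all ranges overlapped. Astrocytes were above neurons by 0.46 ± 0.18 (adjusted p = 0.0419). This call was weak: it was lost without astrocyte saline replicate 1, 2 or 4 or neuron saline replicate 2, 3 or 4 (adjusted p = 0.0759 to 0.0993). The second Ddit3 probe gave 0.20 ± 0.22 (adjusted p = 0.470), and the dexamethasone arrays gave 0.19 ± 0.32 (adjusted p = 0.653). Against tissue the difference was 0.43 ± 0.18 (adjusted p = 0.0582), and this too depended on the setting. It passed the threshold in 5 of 11 other settings, among them the chip as a block (adjusted p = 0.0324), and in 2 of 10 fits without 1 array. In 1 setting its sign was reversed.

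Xbp1 encodes the transcription factor that the endoplasmic reticulum sensor IRE1 activates by splicing its mRNA; the array level does not separate the spliced from the unspliced form. Its levels were 11.79, 11.68, 11.94, 11.82 and 11.73 in astrocytes, 12.25, 12.30, 12.23, 12.37 and 12.23 in neurons and 12.43, 12.13, 12.22, 12.38 and 12.37 in tissue. Astrocytes lay below both other preparations without overlap, by -0.49 ± 0.10 from neurons (1.40-fold, adjusted p = 0.000631) and -0.52 ± 0.10 from tissue (1.43-fold, adjusted p = 0.000432). On the dexamethasone arrays the first held (-0.71 ± 0.20, adjusted p = 0.00717) and the second was not called (-0.43 ± 0.20, adjusted p = 0.0964), but without the tissue array that stood apart it was (-0.61 ± 0.16, adjusted p = 0.00528). Herpud1 encodes a membrane protein of the degradation machinery for misfolded proteins. Its saline means, 12.06 ± 0.28 in astrocytes, 12.23 ± 0.09 in neurons and 12.28 ± 0.14 in tissue (SD, n = 5 each), did not differ by the test (adjusted p = 0.183 to 0.811), and its second probe put the astrocyte minus neuron difference at 0.01 ± 0.14. On the dexamethasone arrays that difference was 0.36 ± 0.20 (adjusted p = 0.136), and 0.36 ± 0.14 (adjusted p = 0.0394) when the tissue array that stood apart did not enter the estimate of the spread.

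Sesn2 encodes sestrin 2, a leucine sensor that restrains the growth kinase complex mTORC1. Of its probes 1 was detected on 1 array and the other on 4 arrays of 30. Group means ran from 5.67 to 5.89 on the first and from 6.10 to 6.26 on the second, in the range of the negative probes. A level of Sesn2 could thus not be measured in any group, which does not show that the RNA was absent.

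**Figure D2:**
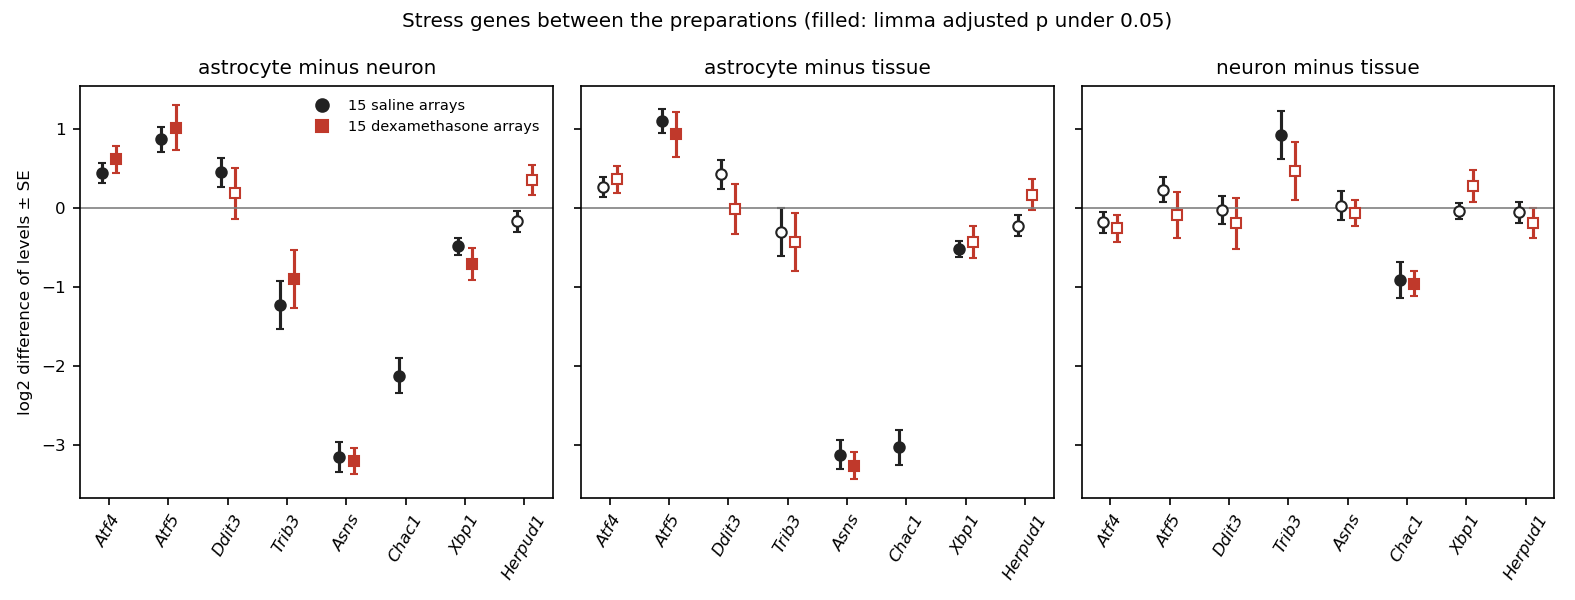
Difference of each tested member between preparations (vertical axis, log2 difference with 1 SE from limma), in 3 panels, from the 15 saline arrays (circles) and the 15 dexamethasone arrays (squares). Filled symbols have an adjusted p under 0.05, and no square is drawn where Chac1 was not detected in astrocytes; Asns and Chac1 lie between -3.27 and -2.13 in both astrocyte panels, and the other members lie between -1.23 and 1.11.

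Wider gene lists of the pathway, chosen with earlier results of these data known, were counted on the same saline arrays. Of 30 other ATF4 targets 23 were tested, and 15 were higher and 4 lower in astrocytes than in neurons, against 26.9% and 31.2% of all genes. Their median difference was 1.61, against -0.08 over all genes. Those with the smallest p were Cth (an enzyme of cysteine synthesis, at least 6.28-fold higher, since it was not detected on any neuron saline array), Slc6a9 (a glycine transporter, 3.74 ± 0.18) and Slc7a11 (the cystine-glutamate exchanger, 5.63 ± 0.27, detected on 3 neuron saline arrays). Psat1 (serine synthesis) was higher by 2.68 ± 0.14, Nupr1 (a stress-induced chromatin protein) by 4.37 ± 0.23 and Slc1a4 (a neutral amino acid transporter) by 3.05 ± 0.18, with adjusted p from 6.29e-12 to 3.86e-10 over the 6. Asns and Chac1 therefore ran against the majority of the other listed targets in this contrast. Of those targets, Atf3 was not detected on any neuron or tissue array, and Cth outside astrocytes only on 1 tissue saline array. Both thus passed the detection filter only through astrocyte arrays, which set their side in advance, here and against tissue. Slc6a9 and Slc7a11 are also known as genes that astrocytes use in transmitter clearance and glutathione supply. Against tissue 14 of the 23 were higher and 5 lower in astrocytes (24.2% and 27.6% of all genes), and between neurons and tissue 2 were higher and 12 lower in neurons (11.1% and 15.9%).

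Of 10 tested tRNA synthetases, which charge tRNAs and include many ATF4 targets, 1 was higher in astrocytes than in neurons and 5 were lower, against the same 26.9% and 31.2% of all genes. Gars was lower by -0.95 ± 0.11 (adjusted p = 1.58e-06) and Mars1 was higher by 0.76 ± 0.14 (adjusted p = 0.000153). Among 11 tested kinases and regulators of eIF2, 2 were higher and 2 lower, smaller shares than over all genes. The kinase genes Eif2ak3 and Eif2ak4 were not detected on enough arrays to be tested, and Eif2s1, for a subunit of eIF2 itself, had no named probe. The higher were Dnajc3 (an inhibitor of eIF2 kinases, 3.00 ± 0.17) and Eif2ak2 (the kinase that senses viral RNA, 1.86 ± 0.20). The lower were Impact (an inhibitor of the amino acid sensing kinase, -0.83 ± 0.13) and Eif2b5 (a subunit of the exchange factor for eIF2, -0.41 ± 0.12). Of 23 tested sensors and chaperones of the endoplasmic reticulum, 14 were higher and 3 lower in astrocytes than in neurons (median 0.38), against 26.9% and 31.2% of all genes. Derl2, Selenos and Pdia4, which act in protein folding or degradation, were higher by 2.05 ± 0.15, 1.48 ± 0.13 and 1.34 ± 0.16, and Wfs1, a membrane protein of the same organelle, was lower by -1.91 ± 0.13 (adjusted p = 2.78e-09).

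Genes that respond within minutes to cell handling and activity also moved with the preparations. The mean level of 10 tested immediate early and heat shock genes was 10.7 in astrocytes (10.1 to 11.3), 9.72 in neurons (9.54 to 10.02) and 8.99 in tissue (8.68 to 9.15) on the saline arrays. Of these 10, 8 were higher and 1 lower in astrocytes than in tissue (24.2% and 27.6% of all genes), among them Fos by 3.56 ± 0.28 (adjusted p = 2.93e-08), and 3 were higher in neurons than in tissue (11.1% of all genes). Ier2 and Hspa1b among the 10 passed the detection filter only through astrocyte arrays, which set their side against tissue in advance. Only in astrocytes did Egr1 and Egr2 run the other way, with means of 14.12 and 8.15 there, 14.74 and 9.70 in neurons and 14.53 and 9.26 in tissue. Between astrocytes and tissue Egr2 was called lower and Egr1 was not called (limma adjusted p = 0.110). The part of sorting in the levels of the members and the wider lists was not tested.

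The second question was whether dexamethasone changed the members within a preparation. No member was called in any of the 3 preparations by limma. In astrocytes 0 of 8 members changed, where 1.76% of all genes did (233 genes). In neurons 0 of 8 changed, against 0% of all genes, and in tissue 0 of 8, against 0.0378% (5 genes). At an unadjusted p under 0.05 there were 2 members and 1342 genes in astrocytes, 0 members and 932 genes in neurons and 0 members and 752 genes in tissue. The drug's known target Fkbp5, a chaperone of the glucocorticoid receptor, was higher by 3.87 ± 0.24 in astrocytes (adjusted p = 2.49e-05) and by 1.12 ± 0.14 in tissue (adjusted p = 0.0202, and 0.0156 without the array that stood apart). In neurons it read 0.63 ± 0.19 (adjusted p = 0.485). Fkbp5 was 1 of 5 known glucocorticoid targets listed as a check. Of these 5, 4 were called higher in astrocytes, 0 in neurons and only Fkbp5 in tissue.

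**Figure D3:**
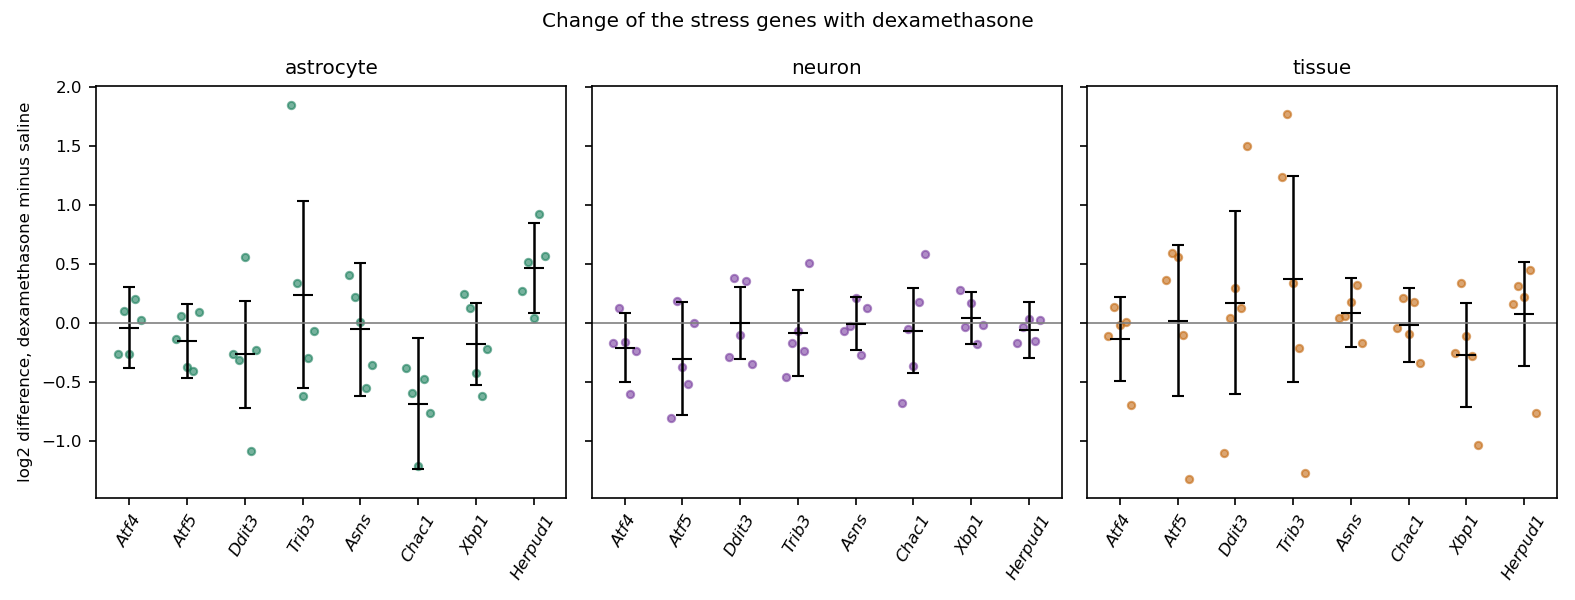
Difference between the dexamethasone and the saline array of each chip (points, 5 per gene) for the tested members in astrocytes, neurons and tissue, with the fitted difference and its 95% interval from limma (vertical axis, log2). Chac1 is below 0 and Herpud1 above 0 on all 5 chips in astrocytes, and the other intervals include 0; Chac1 was not detected on the astrocyte dexamethasone arrays, so that its points there are not measured differences.

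Chac1 had the smallest p among the members in astrocytes. The saline arrays read 6.21, 6.50, 7.62, 6.61 and 7.13, and the dexamethasone arrays 5.83, 5.91, 6.41, 6.14 and 6.37, none of them detected. The ranges overlapped at their ends, and the dexamethasone array was the lower on all 5 chips, by -1.21 to -0.38. The means were 6.82 under saline and 6.13 under dexamethasone (limma adjusted p = 0.319). Only 3 of the 5 saline arrays were detected, so no lower bound of the difference is given. The fitted difference, -0.68 ± 0.25 (95% interval -1.24 to -0.13), rests on values that were not above background. Over the alternatives the adjusted p ran from 0.0519, with all 30 arrays in the fit, to 0.572, and with the chip as a block it was 0.100. In addition, 2 marker lists of other cells were lower in the astrocyte dexamethasone group at the same time: neuron markers averaged 9.74 under saline (9.55 to 9.93) and 9.41 under dexamethasone (8.84 to 9.72), and choroid plexus markers 8.93 (7.77 to 10.4) and 7.87 (7.36 to 8.21). Of these 1 of 7 and 0 of 4 genes were called, and their part in the Chac1 values was not tested.

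Herpud1 was the other member with an unadjusted p under 0.05 in astrocytes. It read 12.17, 11.78, 12.47, 12.05 and 11.84 under saline and 12.44, 12.30, 12.52, 12.97 and 12.41 under dexamethasone. The dexamethasone array was the higher on all 5 chips, by 0.05 to 0.93, with overlapping ranges. The difference was 0.47 ± 0.17 (95% interval 0.09 to 0.85, adjusted p = 0.320), and the second probe gave 0.35 ± 0.16 (adjusted p = 0.532). Over the alternatives its adjusted p was between 0.115 and 0.770.

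The other 6 members in astrocytes had differences from -0.27 (Ddit3) to 0.24 (Trib3). The intervals of Trib3 (-0.55 to 1.03) and Asns (-0.62 to 0.51) covered a change as large as that of Herpud1 in both directions. Those of Ddit3 (-0.72 to 0.19) and Xbp1 (-0.53 to 0.17) covered it only as a fall, and those of Atf4 (-0.38 to 0.31) and Atf5 (-0.46 to 0.16) in neither direction. In neurons the differences ran from -0.30 (Atf5) to 0.05 (Xbp1), and the intervals of the 8 members lay between -0.78 and 0.31. Asns in neurons read -0.01 with an interval of -0.23 to 0.22. On the same arrays the mean of the 10 astrocyte markers was 8.69 under saline (8.05 to 9.35) and 7.59 under dexamethasone (7.09 to 8.09), a median difference of -1.15 with 0 of 10 called, and Gfap, Aldh1l1 and Fgfr3 were not detected on any neuron dexamethasone array. The part of this shift in the neuron values was not tested. Sesn2 gave no test in any preparation.

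In tissue the differences ran from -0.27 (Xbp1) to 0.37 (Trib3), and 1 array decided several of them. Ddit3 read 8.75, 9.32, 9.41, 9.13 and 10.97 under dexamethasone, the last on the array that stood apart, against 9.01 to 9.86 under saline. Atf5 read 10.62, 10.59, 10.44, 10.44 and 9.01, and Xbp1 12.18, 12.48, 12.11, 12.10 and 11.34. On that array Ddit3 was the highest of the group while all 7 other tested members were the lowest. Without it Ddit3 went from 0.17 to -0.19, Atf5 from 0.02 to 0.32, Herpud1 from 0.08 to 0.25 and Xbp1 from -0.27 to -0.09, with adjusted p of 0.604 or more for all 8 members. The count of all genes called was then 14.

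The third question was whether the response differed between preparations, tested as an interaction on all 30 arrays. Again 0 of 8 members were called, against 0.832% of all genes for astrocytes minus neurons, 0.355% for astrocytes minus tissue and 0.0529% for neurons minus tissue. At an unadjusted p under 0.05 there were 2, 1 and 0 members, and 960, 859 and 596 genes. Chac1 differed by -0.62 ± 0.27 between the responses of astrocytes and neurons (adjusted p = 0.573) and by -0.67 ± 0.27 between those of astrocytes and tissue (adjusted p = 0.614, and -0.70 ± 0.28, adjusted p = 0.482, without the tissue array that stood apart), both resting on the undetected astrocyte dexamethasone arrays. Herpud1 differed by 0.53 ± 0.23 between astrocytes and neurons (adjusted p = 0.572). Without that tissue array 0 of 8 members were called in either interaction with tissue. Between the responses of astrocytes and neurons 3 of the 10 astrocyte markers were called (median 1.16), and their part in the member values was not tested. The changes in call between the saline and the dexamethasone arrays described above for Ddit3, Xbp1 and Trib3 were therefore not shown to be differences: the interactions of these genes had adjusted p of 0.888 or more, and those with tissue 0.955 or more without that tissue array.

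Among the wider lists, 3 of 23 other ATF4 targets rose with dexamethasone in astrocytes (1.4% of all genes rose and 0.363% fell) and 0 fell. Mthfd2, a mitochondrial enzyme of folate metabolism, went from a mean of 8.60 to 12.1 (3.48 ± 0.19, adjusted p = 1.66e-05), the smallest p of all genes tested there. Ddit4, an inhibitor of mTORC1 that glucocorticoids are also known to induce, rose by 1.03 ± 0.21 (adjusted p = 0.0285), and Gpt2, a mitochondrial alanine transaminase, by 0.75 ± 0.12 (adjusted p = 0.00754). Eif4ebp1, a brake on translation, read 0.96 ± 0.21 and lay just past the threshold, uncalled (adjusted p = 0.05002). In neurons and tissue 0 of 23 changed (0% and 0.0378% of all genes), in tissue also without the array that stood apart. The Mthfd2 response was larger in astrocytes than in neurons by 3.67 ± 0.28 (adjusted p = 1.93e-09) and than in tissue by 2.93 ± 0.28 (adjusted p = 3.80e-07), or 2.81 ± 0.27 (adjusted p = 1.05e-06) without the tissue array that stood apart, and no other gene of the list was called in an interaction. Mthfd2 in neurons itself read -0.19 ± 0.16 (adjusted p = 0.906), beside the lower astrocyte markers of the neuron dexamethasone arrays given above. Of the tRNA synthetases (10 tested), the eIF2 kinases and regulators (11 tested, without Eif2ak3 and Eif2ak4) and the endoplasmic reticulum list (23 tested), 0 changed with the drug in any preparation. Over all genes 1.76% changed in astrocytes, 0% in neurons and 0.0378% in tissue, so a count of 0 does not set lists of this size apart.

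Relatives of 2 members did change. Sesn1, which encodes another sestrin, rose in astrocytes by 0.77 ± 0.10 (adjusted p = 0.00348), whereas Sesn2 itself was below detection. Trib2, a relative of Trib3, fell by 1.09 on the log2 scale (-1.09 ± 0.15, adjusted p = 0.00372), whereas Trib3 read 0.24 ± 0.36. Sesn3 read -0.51 ± 0.24 (adjusted p = 0.525). The Trib2 response differed between astrocytes and neurons by -1.40 ± 0.20 (adjusted p = 8.95e-05). Between astrocytes and tissue the difference, -0.84 ± 0.20, was not called (adjusted p = 0.0529), but it was called lower without the tissue array that stood apart.

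**Figure D4:**
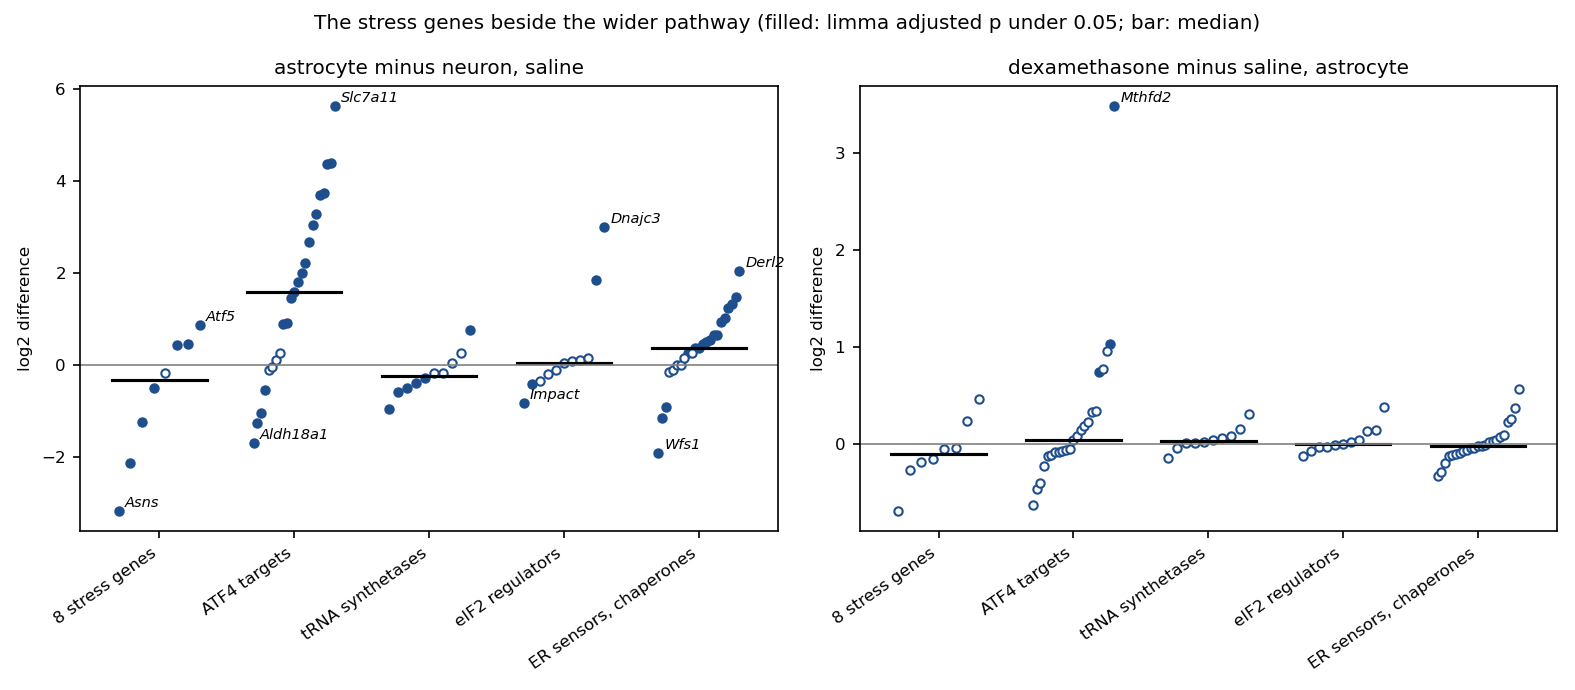
Log2 differences of the tested members and of 4 wider lists of the pathway (points are genes, bars are medians, filled points have a limma adjusted p under 0.05), for astrocytes minus neurons under saline on the left and dexamethasone minus saline in astrocytes on the right. On the left the other ATF4 targets have a median of 1.61 while Asns lies at -3.16, and on the right 3 of the other targets and 0 members are called.

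For the 4 tested members whose group means spanned more than 1 on the log2 scale, the genes with the most similar profile over the 6 groups were sought, by the root mean square difference between centred group means. Closest to Asns were Tceal5 (0.0997) and Pak3 (0.103), and closest to Chac1 were Hap1 (0.135) and Oprl1 (0.160). Atf5 was most like 5730552E08Rik (0.0451) and Svbp (0.0533), and Trib3 most like Slc26a10 (0.0545) and Add2 (0.0739). With 6 groups and 13226 genes, close profiles are common, and the likeness is a description.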

How the data were processed

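Illumina bead arrays of 30 samples were analysed, in 6 groups of 5 given by the labels. Per the labels' protocols, 200 ng of total RNA was purified on RNeasy columns and amplified with a TotalPrep kit; no source used here names the authors' scanner software or background step. The files the authors deposited hold log2 intensities of 46174 probes, not normalized between arrays and with no detection p, and a value table that equals the log2 of the quantile-normalized log2 intensity (largest difference 5e-10), used as an alternative.

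The deposited log2 values were taken back to intensity and corrected by normexp in limma 3.58.1 (R 4.3.3), with 1551 olfactory, vomeronasal, trace amine and taste receptor probes as negatives, since the planned detection p was absent, and an offset of 16. They were then quantile-normalized over 30 arrays and taken to log2. Of the remaining 44623 probes, 22553 were detected (p under 0.05) on 5 arrays or more. Platform symbols were updated through RefSeq: 28566 probes matched by Entrez ID, 2632 by accession, 4527 kept their symbol and 10449 were unnamed. The probe with the highest mean stood for each of 13226 genes; other probes were fitted over all detected probes.

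Tests were limma's lmFit and eBayes, two-sided, with Benjamini-Hochberg adjustment over all tested genes at 0.05: within a preparation on its 10 arrays, as an interaction on 30 arrays, and between preparations on the 15 saline arrays. The number of arrays limits the precision. The chip named in the labels pairs arrays of 1 replicate number. After group means were removed, the correlation of the 2 arrays of a preparation on a chip averaged 0.19 for astrocytes, 0.18 for neurons and 0.05 for tissue, with lowest values of -0.04, 0.07 and -0.13. The fit was also run on simulated arrays with independent noise per gene. These held no chip effect and no array that stood apart, so the run does not cover those features. Members and gene lists were chosen with earlier results of these data known. All members were described; genes of other lists were named where called, at most the 6 with the smallest p per list and comparison. Cell type markers and immediate early genes were given as list means. Alternatives covered background, offset, scaling, filter, probe rule, eBayes settings, chip block, arrays in the fit and leaving out each array; the contrasts on the dexamethasone arrays without tissue replicate 5 were added after seeing the data. The 3 list genes without a named probe were not analysed here.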

Additional observations from a re-analysis of the deposited data

Results flagged for a closer look

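For each of 48 pairs of a tested member and a group of 5 arrays, the highest and the lowest array were compared with the nearest other array, and 3 pairs held a value whose distance from the nearest exceeded the 95% limit of Dixon's test. Chance gives about 1 in 20. Atf4 in tissue under dexamethasone read 11.82 on the array of replicate 5, with the nearest other array at 12.41. Atf5 read 9.01 on the same array, with the nearest at 10.44. That array also had the highest share of detected probes, 50.1%, and the lowest mean correlation with its group, 0.909. Trib3 in neurons under saline read 6.97 on replicate 5, with the nearest at 7.61; this level is near the detection limit, and the array stood within the range of the others in detected probes (39.3%) and mean correlation with its group (0.974).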

How the results depend on the processing

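The 13 calls of members between preparations gave 273 values under the alternatives; 0 changed sign, and 25 lost the call, all of them for Atf4, Ddit3, Trib3 or Xbp1. The count of 0 members changed by dexamethasone, and of 0 whose response differed, held under all alternatives run. The count of members that differed between neurons and tissue fell from 2 to 1 with median centring, with all 30 arrays in the fit and on the dexamethasone arrays, with or without tissue dexamethasone replicate 5, and was 1 or 2 with 1 array left out. For astrocytes against neurons it was 5 to 7 and for astrocytes against tissue 3 to 6. With chip as a replicate block, 1 of 72 member results changed its call, Ddit3 between astrocytes and tissue (0.43, adjusted p = 0.0324), and the tissue count of all genes was 2 in place of 5.

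Median centring in place of quantile normalization moved the median of all genes to -0.23 for dexamethasone in tissue, to -0.19, -0.13 and -0.10 for astrocytes minus tissue, neurons minus tissue and astrocytes minus neurons, and to 0.15, 0.29 and 0.14 for the responses of astrocytes minus neurons, astrocytes minus tissue and neurons minus tissue. The split of all genes into higher and lower then went from 3201 and 3653 to 2280 and 4129 for astrocytes minus tissue, from 1464 and 2098 to 660 and 2219 for neurons minus tissue and from 185 and 48 to 136 and 12 for dexamethasone in astrocytes. The count of all genes called there was 233, against 148 with median centring, 373 with a trended robust eBayes, 369 with all 30 arrays in the fit and 133 to 227 with 1 array left out. In neurons it was 0, against 11 with median centring and 52 with all 30 arrays, and in tissue 5, against 0 with median centring, 8 without normexp, 8 with the deposited value table, 9 with an offset of 50, 13 with all 30 arrays and 14 without tissue dexamethasone replicate 5. Interaction counts moved from 47 to 75 (astrocytes minus tissue, without normexp) and from 7 to 0, 13 and 1 (neurons minus tissue, with median centring, trended robust eBayes and no detection filter).

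The values that changed sign were uncalled before and after, except Herpud1 on 14 dexamethasone arrays, and the cause was not tested. With median centring they were Atf4 0.066 and Asns 0.0021 for dexamethasone in astrocytes, Ddit3 -0.12 and Xbp1 -0.020 in neurons, and Atf5 -0.20, Ddit3 -0.041, Asns -0.21 and Herpud1 -0.22 in tissue. For the response of astrocytes minus that of neurons it was Asns 0.080, for astrocytes minus tissue Atf5 0.14, Trib3 0.051 and Asns 0.21, and for neurons minus tissue Atf4 0.12, Asns 0.13, Chac1 0.029 and Herpud1 0.082; between neurons and tissue under saline it was Asns -0.028. With the mean of the detected probes per gene they were Ddit3 -0.068 and Asns 0.020 for dexamethasone in neurons, Atf4 0.16 and Herpud1 -0.0060 in tissue, Atf4 -0.18 for the response of astrocytes minus that of tissue, Asns 0.0094 for that of neurons minus tissue, and Ddit3 0.14 and Herpud1 0.017 for neurons minus tissue under saline. On the dexamethasone arrays they were Herpud1 0.36 for astrocytes minus neurons, Ddit3 -0.0075 and Herpud1 0.17 for astrocytes minus tissue, and Atf5 -0.086, Asns -0.058 and Xbp1 0.28 for neurons minus tissue. Without tissue dexamethasone replicate 5, a setting chosen after seeing the data, they were Herpud1 0.36 for astrocytes minus neurons (adjusted p = 0.0394), and Atf5 -0.39, Ddit3 0.17, Asns -0.094 and Xbp1 0.10 for neurons minus tissue.

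With 1 array left out, values that crossed 0 ranged as follows. For dexamethasone in astrocytes Atf4 ran from -0.13 to 0.032 and Asns from -0.23 to 0.12. In neurons Ddit3 ran from -0.072 to 0.066, Asns from -0.049 to 0.041, Chac1 from -0.17 to 0.034 and Xbp1 from -0.0076 to 0.077, and in tissue Atf5 from -0.080 to 0.32, Ddit3 from -0.19 to 0.36, Chac1 from -0.086 to 0.031 and Herpud1 from -0.029 to 0.25. For the response of astrocytes minus that of neurons Asns ran from -0.22 to 0.13, and for astrocytes minus tissue Atf4 ran from -0.028 to 0.17, Trib3 from -0.40 to 0.17, Asns from -0.31 to 0.035 and Xbp1 from -0.088 to 0.20. For neurons minus tissue Ddit3 ran from -0.36 to 0.19 and Chac1 from -0.15 to 0.050, and under saline Ddit3 from -0.11 to 0.10 and Asns from -0.013 to 0.077.

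Signal over background limits Sesn2, Trib3 and, in astrocytes, Chac1, whose levels lay near the negative probes. With 5 arrays per group, changes of the size of the intervals given cannot be told from 0. Quantile normalization gives all preparations 1 distribution of levels, so that a difference in total RNA per cell is not seen.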
